A study of Danio rerio with 2 samples.

Results

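The genes described here build the sarcomere of heart muscle cells or serve its contraction. They were listed as 30 symbols, and 29 of these stood in the gene tables, on 30 of the 32057 identifiers, because actc1a stood on 2 of them. The symbol vmhc had no row, and the RefSeq gene table gives vmhc as another name of myh7. Members were matched by symbol, and the matching used no measured value.

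Transcripts of single cells were counted in the border zone and injured tissue of adult zebrafish ventricles at 120 hours post-cryoinjury, a freezing injury that kills part of the ventricular wall. The mutant library came from fish of the AB strain with CRISPR-made mutations in both cd74a and cd74b, which encode the MHC class II invariant chain. The wild-type library came from fish without these mutations, and each library held the pooled cells of 4 ventricles, from 2 females and 2 males, after removal of dead cells. There was 1 library per genotype, so no difference between genotypes was tested, and genotype cannot be told apart from pool, dissociation or library preparation. All intervals are 95% intervals of counting error only, and leave out the spread between cells and between fish.

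A sarcomere slides thin filaments of actin, tropomyosin and troponin along thick filaments of myosin. Thin filaments are anchored at the Z-disc, titin spans from the Z-disc to the thick filament, and calcium released from the sarcoplasmic reticulum binds troponin C to start contraction. In zebrafish hearts, cardiomyocytes of the border zone can dedifferentiate and divide after injury, with a partial loss of sarcomere structure.

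The mutant library held 22991961 unique molecular identifiers (UMIs, each standing for 1 captured transcript) in 15142 barcodes, and the wild-type library 7395919 UMIs in 4607 barcodes. Barcodes with more than 300 genes and at most 70% mitochondrial UMIs were kept as cells, 7174 in the mutant and 3589 in the wild-type library. The barcodes with at most 300 genes, below called low-gene barcodes, numbered 7955 in the mutant and 1018 in the wild-type library. They served as a measure of RNA outside intact cells, although sparse or damaged cells among them were not removed. The libraries shared 15 barcode sequences, 7 of them among kept barcodes. Levels are in CPM, which are UMIs scaled to a total of 1000000 non-mitochondrial UMIs. The targeted genes were checked over all kept barcodes, where cd74a had 86.9 CPM in the mutant against 1170 CPM in the wild-type library, and cd74b 49.8 against 496 CPM.

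Cells were grouped without the members and a wider list of sarcomere genes, and 1 cluster was named cardiomyocyte-like, with 45 mutant and 61 wild-type cells. Sarcomere genes under symbols on neither list, such as ACTC1, were not left out of the grouping. Of 13 cardiomyocyte markers outside the members, all 13 were detected in it in the mutant library and 12 in the wild-type library. Their summed level was 23249 CPM in mutant and 20341 CPM in wild-type cells. The natriuretic peptide genes nppa and nppb, which heart muscle cells secrete, had 2977 and 4947 CPM in mutant cells, against 3273 and 5261 CPM in wild-type cells. The cells were not free of other signals. Summed endocardial markers reached 8015 CPM in mutant and 12264 CPM in wild-type cells, mural markers 4677 and 6966 CPM, fibroblast markers 1459 and 1136 CPM, and macrophage markers 316 and 136 CPM. Neutrophil markers were at 0 in both. In low-gene barcodes the endocardial sums were 12665 CPM in the mutant and 12352 CPM in the wild-type library. The mural sums were 960 and 901 CPM there, the fibroblast sums 7295 and 8306 CPM, and the macrophage sums 1970 and 2475 CPM. Of these types, only the mural sums were higher in cardiomyocyte-like cells than in low-gene barcodes. The 13 mitochondrial genes of the barcode filter took 29.1% of the UMIs of mutant and 20.9% of those of wild-type cells. With all 37 mitochondrial genes left out, 66499 of 107012 UMIs remained in mutant and 80968 of 106283 in wild-type cells. The part of these differences in the results below was not tested.

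Member transcripts made up 12.1% (11.9 to 12.4%) of the 66499 non-mitochondrial UMIs of mutant cardiomyocyte-like cells, against 15.3% (15.1 to 15.5%) of 80968 in wild-type cells. Over single cells the lowest, median and highest shares were 3.26%, 11.9% and 20.1% in the mutant, and 5.14%, 17.1% and 28.0% in the wild-type library. The ranges overlapped widely. A median of 17 members was detected per mutant cell and 20 per wild-type cell.

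**Figure D1:**
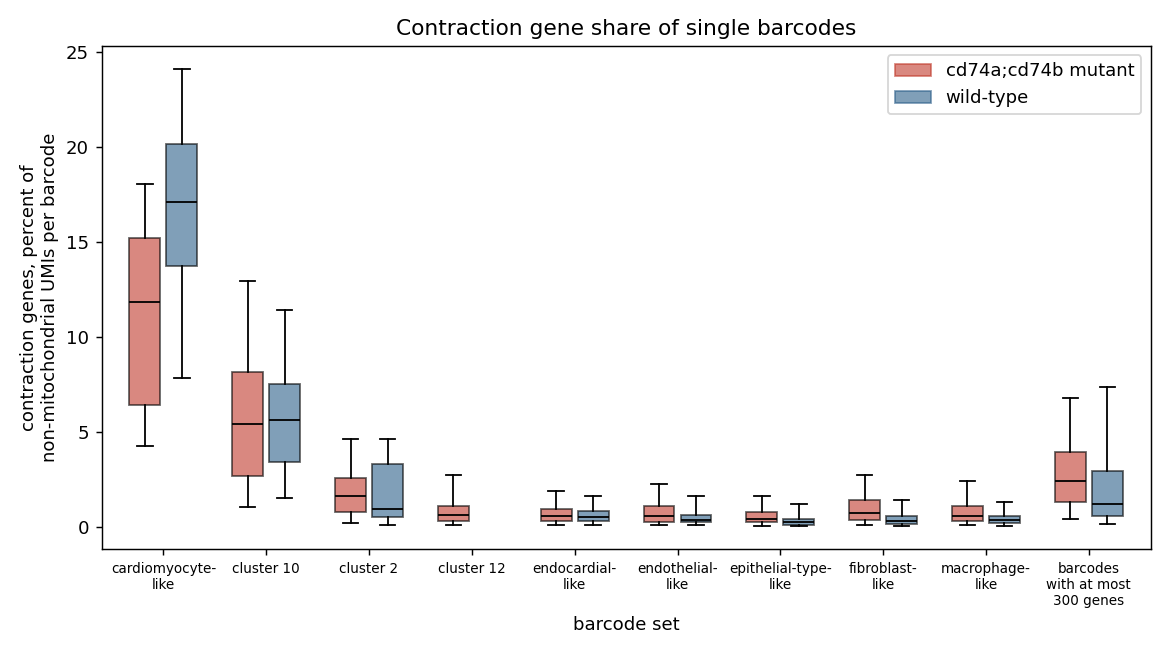
Member UMIs as a percent of the non-mitochondrial UMIs of single barcodes (vertical axis) by barcode set, mutant left of wild type. Boxes span the quartiles with a line at the median, and whiskers run between the percentiles 5 and 95. Cardiomyocyte-like medians were 11.9% in mutant and 17.1% in wild-type cells, and cluster 10 medians were 5.41% and 5.63%.

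Cardiomyocyte-like cells held a small part of all member transcripts. They carried 4.87% of the member UMIs of the mutant library and 20.1% of those of the wild-type library, while low-gene barcodes carried 45.9% and 15.5%. A further cluster, number 10, with 45 mutant and 343 wild-type cells, met the marker limits for cardiomyocytes and also for erythrocytes in both libraries, and for mural cells in the mutant library, and was left unnamed for that reason. Its 10 leading genes were mostly muscle genes and held no haemoglobin gene. Of the cardiomyocyte markers, 10 were over 2-fold there in the mutant and 9 in the wild-type library, and of the erythrocyte markers 5 in each. Members took 5.88% of its non-mitochondrial UMIs in the mutant and 5.89% in the wild-type library. Non-mitochondrial UMIs were 31111 of its 59395 UMIs in the mutant and 333261 of 458451 in the wild-type library. Cluster 2, also unnamed, was nearly all mutant, with 1793 cells against 33, and its member shares were 1.35% and 1.56%. In the remaining classes the share ran between 0.436% and 0.728% in the mutant and between 0.238% and 0.539% in the wild-type library. Of all kept barcodes, 136 mutant (1.90%) and 262 wild-type (7.30%) had more than 5% member UMIs, and 41 and 61 of these were cardiomyocyte-like. A further 25 mutant and 195 wild-type ones were of cluster 10, 59 and 1 of cluster 2, and the rest fibroblast-like or macrophage-like. Cluster 10 carried 1.11% of the member UMIs of the mutant and 31.8% of those of the wild-type library. For cluster 2 these were 16.4% and 0.663%.

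**Figure D2:**
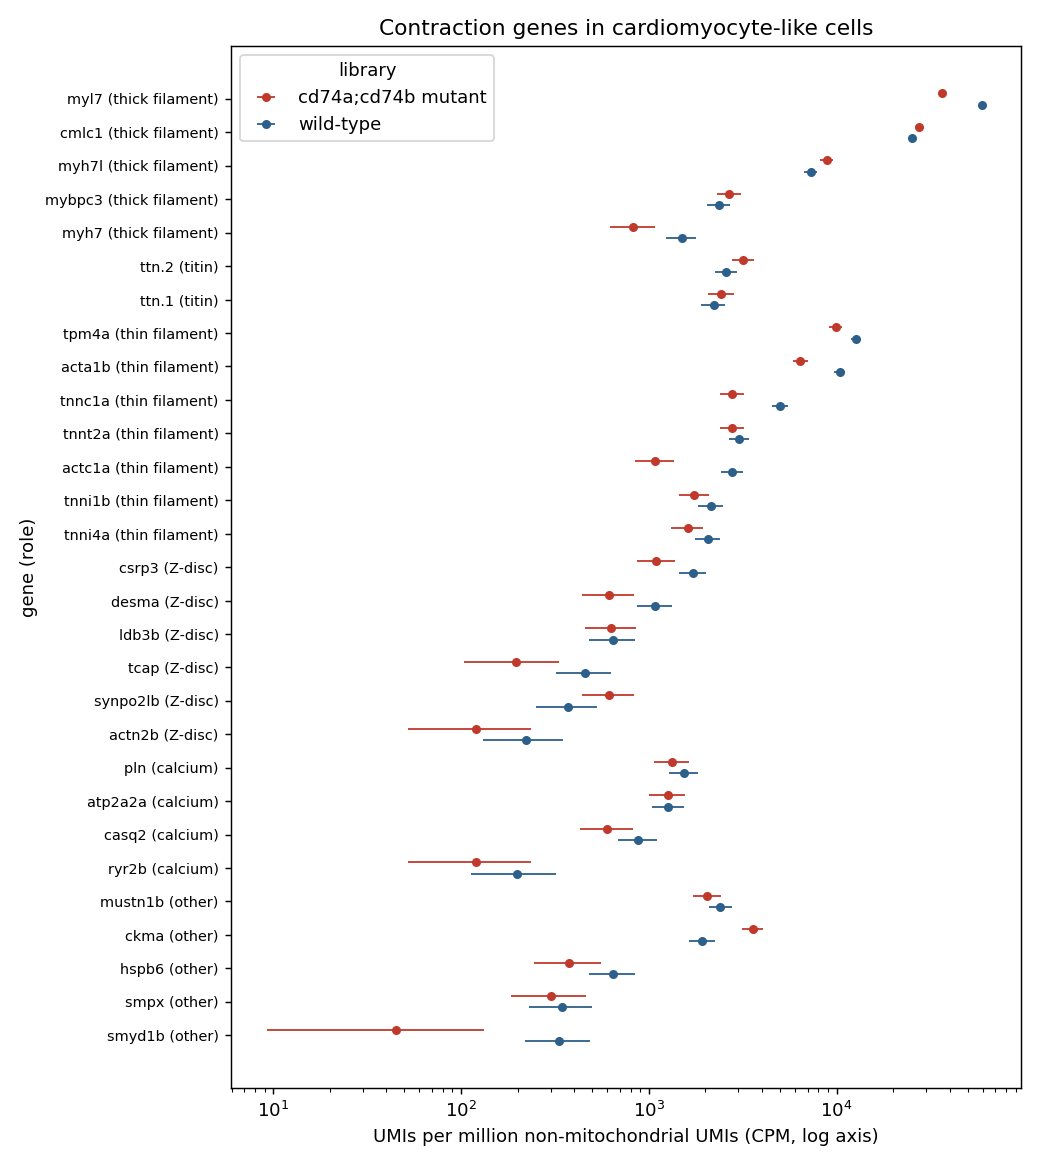
Level of each member (horizontal axis, CPM on a log axis) in mutant and wild-type cardiomyocyte-like cells, as points with exact intervals, ordered by role. The light chain genes myl7 and cmlc1 stand highest in both libraries, with 36392 and 27444 CPM in the mutant, and smyd1b is lowest in the mutant at 45.1 CPM.

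The members were higher in cardiomyocyte-like cells than in low-gene barcodes in both libraries. Their summed level was 5.33-fold above that of low-gene barcodes in the mutant and 7.84-fold in the wild-type library, or 2.41 (2.38 to 2.45) and 2.97 (2.93 to 3.01) on the log2 scale. Over 5% member UMIs were found in 1137 (14.3%) mutant and 116 (11.4%) wild-type low-gene barcodes, with highest shares of 21.3% and 33.2%. Whether these were sparse cells or free RNA was not tested. Members also counted when the leading genes of each cluster were checked for naming, so this contrast is not independent of the name. Of 28 members with at least 50 UMIs, 25 were at least 2-fold higher in mutant cells, where 14.9% of all genes were. In wild-type cells all 28 were, where 23.5% of all genes were. The steepest member in both libraries was mustn1b, a small nuclear protein gene of the musculoskeletal system, at 14.4-fold in the mutant and 14.6-fold in the wild-type library. For myl7 the values were 10.6-fold and 11.2-fold. The 3 mutant members under 2-fold were ttn.1 at 1.62-fold, ttn.2 at 1.55-fold and ryr2b at 1.21-fold, against 3.65-fold, 3.13-fold and 2.86-fold in the wild-type library. Of these 3 genes, 2 encode titin and 1 encodes the calcium release channel of the sarcoplasmic reticulum. In cluster 10, 23 of 28 members were at least 2-fold above low-gene barcodes in the mutant and 26 of 28 in the wild-type library, where 27.6% and 24.1% of all genes were. In fibroblast-like cells the members lay below their level in low-gene barcodes, with 28 of 28 lower in the mutant and 27 of 27 in the wild-type library, where 67% and 41.2% of all genes were lower. The same held for 28 of 28 and 26 of 26 members in macrophage-like cells, where 65.7% and 36.2% of all genes were lower, and for 28 of 28 and 26 of 26 in endocardial-like cells, where 78.1% and 53.3% were.

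The thick filament gave most member transcripts. Its 5 members took 62.9% (61.9 to 64.0%) of the member UMIs in mutant and 62.8% (61.9 to 63.7%) in wild-type cardiomyocyte-like cells. The thin filament members took 21.7% (20.8 to 22.6%) and 24.9% (24.1 to 25.7%). Titin took 4.65% and 3.13%, the Z-disc with desmin 2.71% and 2.93%, calcium handling 2.73% and 2.53%, and the remaining muscle genes 5.24% and 3.70%. In low-gene barcodes the thick filament had a smaller part, 47.9% in the mutant and 54.1% in the wild-type library. Titin stood out there, with 15.7% in the mutant against 7.34% in the wild-type library, and a summed log2 ratio of 1.31 (1.202 to 1.42).

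**Figure D3:**
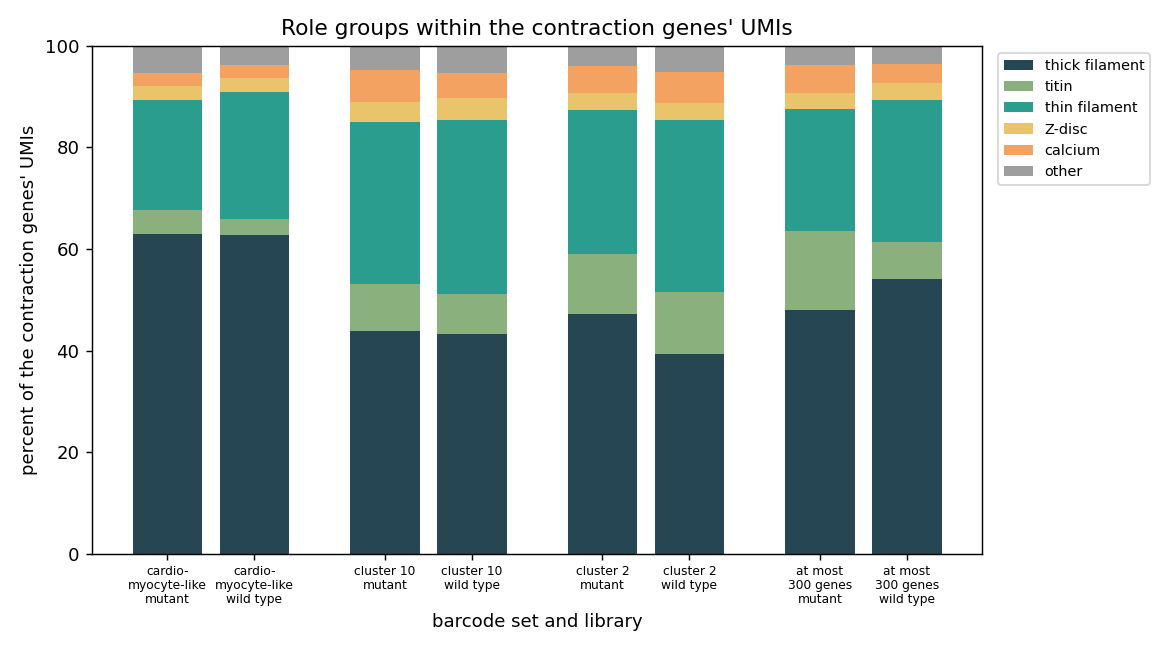
Stacked bars of the percent of member UMIs (vertical axis) in each role group, by barcode set, with the mutant bar left of the wild-type bar. The thick filament is the largest group in every set, and titin in low-gene barcodes is 15.7% in the mutant and 7.34% in the wild-type library.

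Between genotypes, 25 members had at least 50 UMIs in cardiomyocyte-like cells. None of them was at least 2-fold higher in the mutant and 2 were at least 2-fold lower, actc1a and tcap, where 5.47% of the 329 genes tested were higher and 5.47% lower by that much. By any amount, 18 members were lower and 7 higher in the mutant, where 48.9% of all genes were lower and 51.1% higher. On the log2 scale, the members' median ratio of mutant to wild-type level was -0.29, and that of all genes 0.01. The summed level had a log2 ratio of -0.34 (-0.38 to -0.30). These values depended on which barcodes were counted. The sum was 0.39 with cluster 10 joined, an alternative chosen after seeing the data, 0.0056 with cells chosen by their marker UMIs, and -0.041 in the 12 mutant and 18 wild-type cells with more than 500 genes. In these 3 settings the members' median was 0.16, 0.0051 and 0.0011, with 11 of 29, 13 of 27 and 11 of 22 members lower. Shares over all genes were not counted in these settings, so the counts do not show whether members differed from other genes. Cells chosen by marker UMIs had to pass a multiple of the marker share of low-gene barcodes in their own library. That share was 3968 CPM in the mutant and 3012 CPM in the wild-type library, so the cut was higher in the mutant. Within cluster 10 alone the summed log2 ratio was -0.0033 (-0.073 to 0.066). The joined set held 90 mutant and 404 wild-type cells, of which 45 and 61 were cardiomyocyte-like. Its ratios thus mix the clusters in unlike proportions, and the joined sum lay above that of either cluster alone.

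**Figure D4:**
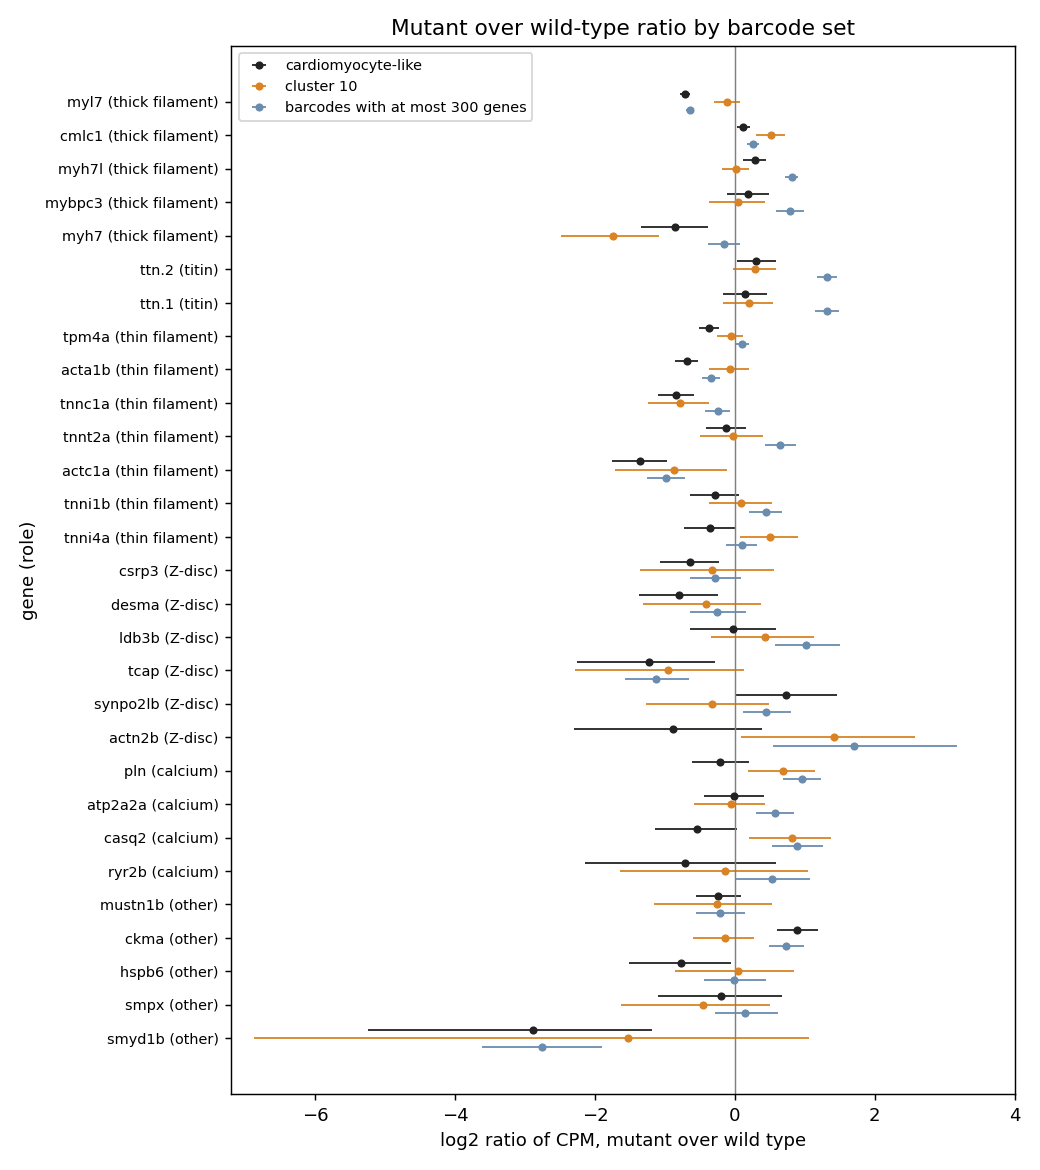
Log2 ratio of mutant over wild type for each member (horizontal axis, exact intervals as lines) in cardiomyocyte-like cells, cluster 10 and low-gene barcodes. The ratio of myl7 is -0.71, -0.11 and -0.64 in these sets, and that of cmlc1 is 0.12, 0.51 and 0.25.

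Among thick filament genes, the myosin light chains had the highest levels of all members. UMIs of 3' tags count transcripts, so levels were not divided by gene length. The regulatory light chain gene myl7 (ENSDARG00000019096) had 36392 (34956 to 37871) CPM in mutant and 59703 (58031 to 61410) CPM in wild-type cardiomyocyte-like cells, a log2 ratio of -0.71 (-0.79 to -0.64). That ratio was 0.55 with cluster 10 joined, -0.29 with more than 500 genes and -0.16 with cells chosen by marker UMIs. The essential light chain gene cmlc1 (ENSDARG00000032976) had 27444 (26199 to 28733) CPM in mutant and 25245 (24162 to 26363) CPM in wild-type cells, a log2 ratio of 0.12 (0.03 to 0.21), which was -0.17 when scaled to all UMIs, -0.11 as a mean over cells and -1.65 with clusters 10 and 2 joined. That joined set held 1793 mutant and 33 wild-type cells of cluster 2, so its ratio mixes the clusters in unlike proportions. Within cluster 10 alone the log2 ratio of cmlc1 was 0.51 (0.31 to 0.71), and within cluster 2 alone 0.47 (-0.007 to 0.996). The products of myl7 and cmlc1 sit on the same myosin head. Of the 12387 member UMIs of wild-type cells, 4834 were of myl7. As a part of myl7 and cmlc1 UMIs together, myl7 took 57.0% (55.5 to 58.5%) in mutant and 70.3% (69.2 to 71.4%) in wild-type cells. This share does not depend on scaling, and it was lower in the mutant in each further set: 52.4% against 62.8% in cluster 10, 50.4% against 63.5% in cluster 2, and 54.5% (53.8 to 55.2%) against 69.0% (67.5 to 70.5%) in low-gene barcodes. These sets come from the same pair of libraries and are not replicates.

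The myosin heavy chain genes, for the motor of the thick filament, also had unlike ratios. The gene myh7l had 8842 (8142 to 9587) CPM in mutant and 7274 (6699 to 7886) CPM in wild-type cardiomyocyte-like cells, with a log2 ratio of 0.28 (0.11 to 0.45). Its neighbour myh7 had 827 (623 to 1077) CPM in mutant and 1494 (1240 to 1786) CPM in wild-type cells, a log2 ratio of -0.85 (-1.34 to -0.38). Of the UMIs of both genes, myh7 took 8.55% (6.51 to 11.0%) in mutant and 17.04% (14.3 to 20.01%) in wild-type cells. The share was 7.31% against 21.1% in cluster 10 and 8.59% (8.11 to 9.10%) against 15.6% (13.5 to 17.8%) in low-gene barcodes. In cluster 2 it was 8.99% against 13.5%, with intervals that overlapped. These neighbouring genes may share reads, and their likeness in sequence was not measured, so the split between them is uncertain. The myosin binding protein gene mybpc3, which links myosin to actin, had 2677 CPM in mutant and 2359 CPM in wild-type cells, and its interval of -0.12 to 0.48 included 0.

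**Figure D5:**
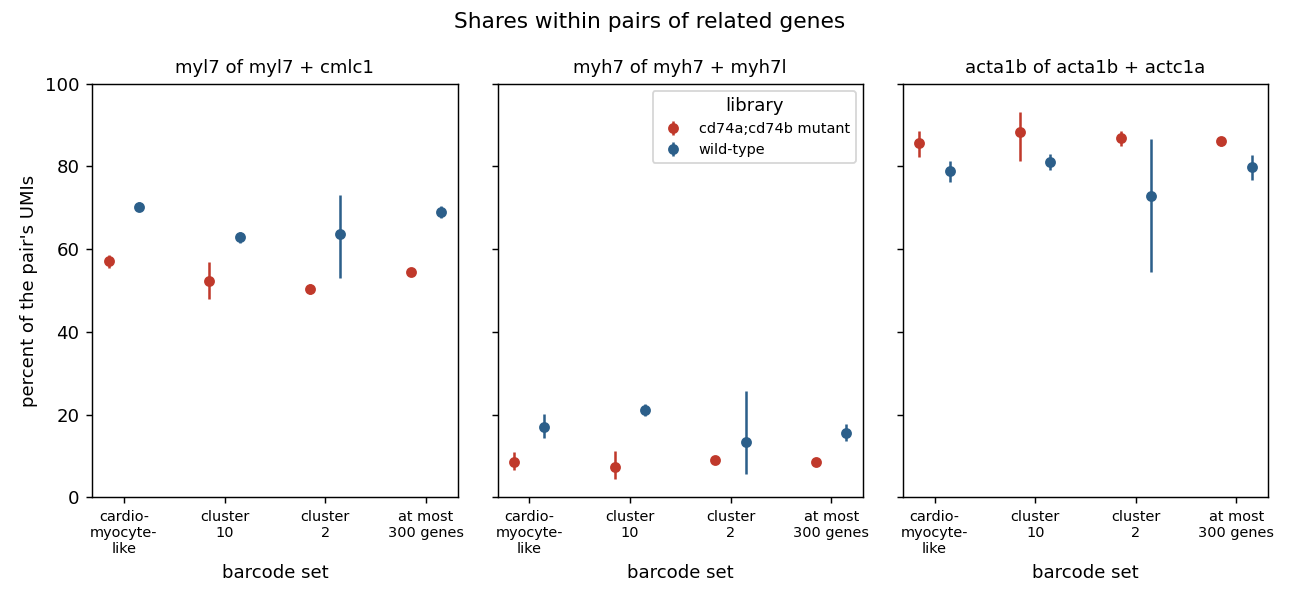
Percent of the UMIs of a gene pair taken by its named member (vertical axis, exact intervals) for myl7 with cmlc1, myh7 with myh7l and acta1b with actc1a, by barcode set, mutant left of wild type. The myl7 share is 57.0% in mutant and 70.3% in wild-type cardiomyocyte-like cells, and 54.5% and 69.0% in low-gene barcodes.

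The titin genes encode the giant elastic protein of the sarcomere. In cardiomyocyte-like cells ttn.2 had 3188 CPM in the mutant and 2581 CPM in the wild-type library, a log2 ratio of 0.30 (0.02 to 0.59). For ttn.1 the levels were 2436 and 2211 CPM, with an interval of -0.18 to 0.45. In low-gene barcodes both genes had a log2 ratio of 1.31, and ttn.2 reached 2051 CPM in the mutant against 826 CPM in the wild-type library. The neighbours ttn.1 and ttn.2 may share reads, and ttn.1 took 43.3% of their sum in mutant and 46.1% in wild-type cardiomyocyte-like cells, with overlapping intervals.

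All 7 thin filament members with enough UMIs were lower in mutant cardiomyocyte-like cells, where 48.9% of all genes were, and the summed log2 ratio of the group was -0.54 (-0.62 to -0.45). With cluster 10 joined this sum was 0.011. The tropomyosin gene tpm4a, whose product covers the myosin sites on actin, had 9880 (9139 to 10665) CPM in mutant and 12721 (11956 to 13522) CPM in wild-type cells. The striated muscle actin gene acta1b had 6421 (5826 to 7060) CPM in mutant and 10375 (9685 to 11100) CPM in wild-type cells, a log2 ratio of -0.69 (-0.86 to -0.52). The largest distance was that of the cardiac actin gene actc1a (ENSDARG00000042535), with 1083 (847 to 1364) CPM in mutant and 2779 (2428 to 3167) CPM in wild-type cells. Its log2 ratio was -1.36 (-1.76 to -0.97) in these cells, -0.87 (-1.72 to -0.12) in cluster 10 and -0.99 (-1.25 to -0.71) in low-gene barcodes. The gene acta1b took 85.6% (82.2 to 88.5%) of the UMIs of acta1b and actc1a in mutant and 78.8% (76.2 to 81.2%) in wild-type cells. In low-gene barcodes it took 86.0% (84.9 to 87.2%) against 79.9% (76.8 to 82.7%). This share leaves out other actin genes found in these cells, such as ACTC1, and acta1a with 677 CPM in mutant and 1396 CPM in wild-type cardiomyocyte-like cells. Actin genes are near-identical in their coding parts. Reads of 3' tags may have been split between them, which was not measured. The other identifier of actc1a (ENSDARG00000076126) had 0 UMIs in mutant and 1 in wild-type cells.

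Of the troponins, tnnc1a for the calcium-binding subunit had 2782 (2396 to 3213) CPM in mutant and 4990 (4515 to 5501) CPM in wild-type cardiomyocyte-like cells, a log2 ratio of -0.84 (-1.10 to -0.59). It was also lower in cluster 10, at -0.79 (-1.24 to -0.37), and less so in low-gene barcodes, at -0.25 (-0.42 to -0.07). The subunit that ties troponin to tropomyosin, encoded by tnnt2a, had 2767 CPM in mutant and 3026 CPM in wild-type cells, with an interval of -0.41 to 0.15. The inhibitory subunit genes tnni1b and tnni4a had 1744 and 1609 CPM in mutant cells, against 2137 and 2063 CPM in wild-type cells, and both intervals included 0. Of these 4 troponin genes, only tnnc1a had an interval that lay wholly below 0.

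At the Z-disc, 4 of 5 members with enough UMIs were lower in the mutant, where 48.9% of all genes were, and 1 of the 4, ldb3b, was nearly level. The summed log2 ratio of the group was -0.45 (-0.70 to -0.21), and 0.020 with cluster 10 joined. The titin cap gene tcap had 13 UMIs in mutant and 37 in wild-type cells, or 195 (104 to 334) CPM against 457 (322 to 630) CPM, and a log2 ratio of -1.22 (-2.26 to -0.28). In low-gene barcodes its ratio was -1.13 (-1.57 to -0.66), with 51.2 CPM in the mutant and 112 CPM in the wild-type library. The muscle LIM protein gene csrp3 had 1098 CPM in mutant and 1717 CPM in wild-type cells, a log2 ratio of -0.65 (-1.07 to -0.23). The intermediate filament gene desma, for desmin, which links the Z-discs of neighbouring myofibrils, had 617 and 1075 CPM, a log2 ratio of -0.80 (-1.37 to -0.25). In the other direction, synpo2lb, for an actin-binding protein, had 617 CPM in mutant and 371 CPM in wild-type cells, a log2 ratio of 0.73 (0.02 to 1.46). The gene ldb3b, which encodes a partner of alpha-actinin, had 632 and 642 CPM. The alpha-actinin gene actn2b had 8 UMIs in mutant and 18 in wild-type cells, too few for a direction.

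The calcium handling genes had a summed log2 ratio of -0.23 (-0.48 to 0.02), an interval that included 0, and of 0.17 with cluster 10 joined. The calcium pump gene atp2a2a had 1263 CPM in mutant and 1272 CPM in wild-type cardiomyocyte-like cells, an interval of the log2 ratio of -0.44 to 0.42. Its inhibitor pln, phospholamban, had 1323 and 1531 CPM, and the calcium store protein gene casq2 had 602 and 877 CPM. The release channel gene ryr2b had 8 UMIs in mutant and 16 in wild-type cells. In other barcodes pln and casq2 were higher in the mutant: the log2 ratio of pln was 0.68 (0.18 to 1.15) in cluster 10 and 0.95 (0.69 to 1.23) in low-gene barcodes, and that of casq2 0.81 (0.20 to 1.37) and 0.88 (0.53 to 1.26).

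Of the remaining members, the muscle creatine kinase gene ckma, which supplies ATP to the myofibril, had the highest ratio of the 25 members with enough UMIs, with 3579 (3139 to 4064) CPM in mutant against 1927 (1636 to 2254) CPM in wild-type cells. Its log2 ratio was 0.89 (0.60 to 1.19) in cardiomyocyte-like cells, -0.15 (-0.61 to 0.28) in cluster 10 and 0.73 (0.49 to 0.99) in low-gene barcodes. The myosin chaperone and methyltransferase gene smyd1b (ENSDARG00000091253), needed for thick filament assembly in zebrafish muscle, had 3 UMIs in mutant and 27 in wild-type cells. The ratio of its levels was 0.135, and -2.89 (-5.25 to -1.19) on the log2 scale. It was low in the mutant elsewhere too, with 25 UMIs in low-gene barcodes of each library, which is 7.5 CPM against 50.8 CPM and a log2 ratio of -2.76 (-3.62 to -1.90). Over all kept barcodes smyd1b had 40 UMIs in the mutant and 106 in the wild-type library, a log2 ratio of -2.30 (-2.86 to -1.76). The small heat shock protein gene hspb6 had 376 CPM in mutant and 642 CPM in wild-type cells, with an interval of -1.52 to -0.06, while mustn1b had 2045 and 2408 CPM and the small muscle protein gene smpx 301 and 346 CPM, with intervals that included 0.

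Single cells were also compared at equal depth, each thinned to 500 non-mitochondrial UMIs. This left 45 mutant and 59 wild-type cells and took out 0 and 2. Of 29 members with a UMI, 23 were then found in a smaller share of mutant than of wild-type cells, 5 in a larger share and 1 in the same share. The 5 in a larger share were ttn.1, at 60% against 52.5%, synpo2lb, ckma, mybpc3 and ttn.2. This count was not made over all genes, so it does not show whether the members differ from other genes at equal depth. Members found in nearly all cells of both libraries, such as myl7, cmlc1 and tpm4a, had little room to differ. The largest distances, chosen after the values were seen, were those of csrp3 and actc1a. A UMI of actc1a was found in 44.4% (29.6 to 60.0%) of mutant and 69.5% (56.1 to 80.8%) of wild-type cells, and in 66.7% and 95.1% without thinning. For csrp3, 15 of 45 mutant cells (33.3%) and 37 of 59 wild-type cells (62.7%) had a UMI after thinning. In macrophage-like cells, which should lack both genes, the thinned shares for actc1a were 2.70% and 3.60%, and for csrp3 2.83% and 1.24%. The median depth before thinning was 1289 non-mitochondrial UMIs in mutant and 1063 in wild-type cardiomyocyte-like cells. It was 1083 and 1078 in macrophage-like cells. For the most abundant members a UMI alone told little, since myl7 was found in 38.8% of mutant and 25.7% of wild-type macrophage-like cells at the same depth.

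The members' ratios took other values outside cardiomyocyte-like cells. In low-gene barcodes 4 of 29 members were at least 2-fold higher in the mutant (ttn.1, ttn.2, ldb3b and actn2b), where 6.63% of all genes were. The genes tcap and smyd1b were at least 2-fold lower there, where 3.61% of all genes were. In cluster 10, none of 27 was higher by that much, where 2.04% of all genes were, and only myh7 was lower, where 15.3% were. Its level was 611 (368 to 954) CPM in the mutant against 2049 (1899 to 2209) CPM in the wild-type library. In fibroblast-like cells 14 of 28 were at least 2-fold higher in the mutant, where 3.41% of all genes were, and in macrophage-like cells 6 of 27, where 2.89% were. These pooled classes were filled by different clusters in each library. Within fibroblast-like cluster 1, with 1898 mutant and 38 wild-type cells, the member share was 0.853% against 0.838%, within cluster 4, with 425 and 799 cells, 0.401% against 0.388%, and within cluster 7, with 226 and 403 cells, 0.583% against 0.366%. Within macrophage-like cluster 3, with 1413 and 57 cells, it was 0.642% against 0.623%, and within cluster 5, with 69 and 921 cells, 0.481% against 0.385%.

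Member shares also moved with the number of genes per barcode. In the mutant library they were 4.08% at 101 to 200 genes, 1.43% at 301 to 350 genes and 0.420% above 700 genes. In the wild-type library the shares in the same bins were 4.91%, 1.33% and 0.671%, so the sparsest of these bins held relatively more sarcomere RNA in both. Between these bins the wild-type share did not fall steadily. It was 1.00% over 350 and up to 400 genes, 1.28% up to 500 genes and 1.03% up to 700 genes. The mutant shares in those bins were 1.16%, 0.927% and 0.684%.

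Of 120 further sarcomere and muscle genes on a list that was not picked by their ratios, 113 had a row, and 8 had at least 50 UMIs in cardiomyocyte-like cells. Of these, 7 were lower in the mutant and 3 at least 2-fold lower, where 48.9% and 5.47% of all genes were, with a median log2 ratio of -0.69. The Z-disc gene ldb3a, a paralogue of ldb3b, had 571 CPM in mutant and 1507 CPM in wild-type cells, a log2 ratio of -1.40 (-1.96 to -0.86). The actin gene acta1a had 677 and 1396 CPM (-1.04, interval -1.58 to -0.53), and xirp1, for an actin-binding repeat protein, 211 and 556 CPM (-1.40, interval -2.38 to -0.51). The tropomyosin gene tpm2 had 511 and 902 CPM and the filamin gene flnca 376 and 556 CPM, while the M-band gene myom1b was at 692 CPM in both. Not all of the 7 lower genes had an interval below 0, and that of flnca was -1.33 to 0.17. In cluster 10, 7 of 11 genes of the list were lower, with a median of -0.14, where 511 of all 884 genes were. In low-gene barcodes 23 of 27 were higher in the mutant, with a median of 0.46, where 2068 of all 4375 genes were.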

How the data were processed

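Counts of UMIs per gene and barcode were deposited by the authors as whole numbers with no normalisation, from droplet libraries of the Chromium 3' chemistry, version 3.1. The submitters' processing notes name STARsolo, Scanpy and the danRer11 build. The annotation release is not given in the sources used here. Symbols came from the deposited gene tables, and RefSeq names of the GRCz12tu assembly served only for synonyms and neighbouring genes.

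Kept barcodes had more than 300 genes and at most 70% of UMIs in the 13 genes named as mitochondrial, and 37 mitochondrial genes were left out of scaling. Cells of both libraries were clustered with scanpy 1.11.5 (2000 variable genes, 50 components, 15 neighbours, Leiden resolution 1, seed 1), giving 14 clusters. Mitochondrial and ribosomal genes, the members and the wider list of sarcomere genes were left out of the clustering. Clusters were named from at least 3 markers above 2-fold with a median log2 fold of 0.5 or more, in either library against its other cells, and stayed unnamed where types of another family or erythrocytes met the same limits or led the top genes. These limits were set after the clusters were seen. The marker lists held no member, but in the check of top genes the members counted as cardiomyocyte genes. Some clusters, such as fibroblast-like cluster 1, met them in the mutant library only. Doublets were left in. UMIs were summed per class and library, with exact Poisson and binomial (Clopper-Pearson) intervals and exact conditional intervals of ratios (scipy 1.17.1). Only the intervals of ratios were tested on simulated counts. These counts were drawn with Poisson error alone, so the test cannot show how the intervals hold with spread between cells. Ratios were counted for genes with at least 50 UMIs over both libraries. With 1 library per genotype there was no test between genotypes. Depths were 22991961 UMIs in the mutant and 7395919 UMIs in the wild-type library.

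Every member could be named, with, of the wider list, the 5 genes with most UMIs and those past 2-fold, besides nppa, nppb and haemoglobin genes. Members and lists were chosen with earlier results of these data known. Alternatives changed the filters, the seed, resolution and genes of clustering, the class, the scaling, free RNA and the count minimum.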

Additional observations from a re-analysis of the deposited data

Results flagged for a closer look

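The summed member level differed in sign between classes. Its ratio of mutant to wild-type level, on the log2 scale, was -0.34 in cardiomyocyte-like cells, against 0.90 in fibroblast-like, 0.67 in macrophage-like and 0.87 in epithelial-type-like cells. The difference between these ratios was not tested, with 1 library per genotype. The levels in the other classes lay below those of low-gene barcodes in both libraries, and the pooled fibroblast-like and macrophage-like ratios come from classes whose clusters differ between libraries.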

How the results depend on the processing

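Of 264 values recomputed under alternatives, 163 lay within the counting interval of the reported value (for the median, that of the middle gene, and for counts within 1.5 times) and 101 did not. Of 234 signed values, 19 changed sign, and for 14 of these the reported interval excluded 0. No paired analysis was possible because the labels give no replicate numbers and each genotype has 1 library. At Leiden resolution 0.5 no cluster met the limits for cardiomyocyte-like cells, so it gave no value. The pair shares kept their direction under every alternative run. Joining cluster 10 and all alternatives of the pairs were chosen after seeing the data. Below, log2 ratios are of mutant over wild type, and levels over low-gene barcodes are log2 values, mutant library before wild-type library. Counts of lower genes below are of members only. No count over all genes was made under the alternatives, so these counts do not show whether members differed from other genes.

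With more than 500 genes (12 mutant and 18 wild-type cells) the summed ratio was -0.041, thick filament 0.011, thin filament -0.28, Z-disc -0.17 and other muscle genes 0.41, the median 0.0011, with 0 of 22 genes 2-fold lower, 11 lower, and 2.80 and 3.06 over low-gene barcodes. With at least 300 genes the sum was -0.25, thick filament -0.22 and the mutant value over low-gene barcodes 2.47. With at most 50% mitochondrial UMIs these were -0.25, -0.24 and 2.50, with 1 of 24 genes 2-fold lower. With the members and the wider list in the clustering (34 and 62 cells) the sum was -0.19, thick filament -0.18, thin filament -0.40, 1 gene 2-fold lower, and 2.57 in the mutant over low-gene barcodes. With cells chosen by marker UMIs (101 and 194 cells) the sum was 0.0056, the median 0.0051 with 13 of 27 genes lower, thick filament 0.11, thin filament -0.24, and 2.11 and 2.33 over low-gene barcodes. The marker cut of this choice was set from the low-gene barcodes of each library and was higher in the mutant.

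With cluster 10 joined the sum was 0.39, the median 0.16 with 11 of 29 genes lower, myl7 0.55, thick filament 0.61, thin filament 0.011, Z-disc 0.020, calcium 0.17 and other 0.51, and 2.16 and 1.99 over low-gene barcodes. This set had 90 mutant and 404 wild-type cells, 45 and 61 of them cardiomyocyte-like, so its ratios mix the clusters in unlike proportions. The mutant share minus the wild-type share was -10.7 points for myl7 and -12.1 for myh7 (as reported -13.3 and -8.49). With clusters 10 and 2 joined, 1883 mutant cells stood against 437 wild-type cells. Of these, 1793 and 33 were of cluster 2, so these ratios also mix the clusters in unlike proportions. The sum was then -2.06, the median -2.02 with 29 of 29 genes 2-fold lower, cmlc1 -1.65, ckma -2.00, thick filament -2.07, titin -1.33, thin filament -2.25, Z-disc -2.27, calcium -1.79, other -2.24, and -0.37 and 1.92 over low-gene barcodes.

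Scaled to all UMIs the sum was -0.63, 7 genes were 2-fold lower, cmlc1 was -0.17, and levels over low-gene barcodes were 3.14 and 3.41. Without ribosomal and haemoglobin genes these were -0.26 for the sum, then 2.19 and 2.67. As means over cells the sum was -0.59, 4 genes were 2-fold lower, cmlc1 was -0.11, the pair differences -15.5 points for myl7 and -3.92 for myh7, and 2.29 and 3.09 over low-gene barcodes. With free RNA subtracted (estimated at 17.57% of mutant and 16.95% of wild-type UMIs) 1 of 24 genes was 2-fold lower, and levels over low-gene barcodes were 2.62 and 3.18. Free RNA was taken here as the profile of low-gene barcodes, which may hold damaged cells. At a minimum of 200 UMIs 1 of 17 genes was 2-fold lower and 11 lower. The cause of these changes was not tested. With 45 and 61 cells, members under 50 UMIs have intervals too wide for a direction, except smyd1b.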

Other observations

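Of the wider list's 116 identifiers, 57 had no UMI in cardiomyocyte-like cells of either library, where a floor of 3 UMIs would be 45.1 CPM in mutant and 37.0 CPM in wild-type cells. The myosin chaperone gene unc45b, a partner of smyd1b in zebrafish muscle, had 1 UMI in mutant and 11 UMIs in wild-type cardiomyocyte-like cells, a log2 ratio of -3.18 (-8.60 to -0.39). It lay outside the rule for named genes and was chosen after its value was seen.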
